A study of Mus musculus with 6 samples.

Results

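Islr, Islr2 and 8 small leucine-rich proteoglycans, Dcn, Bgn, Lum, Fmod, Ogn, Prelp, Aspn and Podn, were followed in mouse colon with and without Islr. These 10 genes were chosen by name, as Islr with its paralog and the family of matrix proteins that resemble it, and were 10 of the 23462 genes that could be named on the array. They carried 11 probes, with 2 for Prelp and 1 for each of the others. RNA came from 3 control and 3 Islr knockout male mice, 1 array an animal. The source label of all 6 animals gives 3.5% dextran sulphate sodium (DSS), which injures the colon lining, given to drink over 5 days and then 1 day without it, whereas a separate treatment field states that there was none. No animal without DSS was analysed here, so every difference below is between genotypes in colons that carry the same label. Strain, age, the way Islr was deleted and the deleted part of the gene are not given in the sources used here.

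Small leucine-rich proteoglycans are secreted proteins of the extracellular matrix built around a row of leucine-rich repeats. Many carry chondroitin, dermatan or keratan sulphate chains, and several bind collagen fibrils and set their diameter and spacing, or hold growth factors such as TGF-beta. Decorin (Dcn) and lumican (Lum) are made in large amounts by fibroblasts of the gut wall, and biglycan (Bgn), once released from matrix, is known as a ligand of Toll-like receptors. Islr is a secreted protein with leucine-rich repeats and an immunoglobulin domain that marks mesenchymal cells. Islr2, its paralog, is a membrane protein best known from neurons.

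Promoters of 4 members, picked after their values were seen, are shown to set sequences beside the results below: those of Islr and Bgn, which fell in the knockout, and those of Ogn and Aspn, from 1 run of family genes on chromosome 13, whose knockout means were above the control means without a call. Each sequence is the 250 bases before a RefSeq start in GRCm38.p6, written 5′ to 3′ on the gene's strand. Capitals mark letters that match a searched motif on either strand. Islr lies at chr9:58158555-58158804 on the minus strand, Bgn at chrX:73483351-73483600, Ogn at chr13:49607765-49608014 and Aspn at chr13:49544193-49544442, the last 3 on the plus strand.
Islr: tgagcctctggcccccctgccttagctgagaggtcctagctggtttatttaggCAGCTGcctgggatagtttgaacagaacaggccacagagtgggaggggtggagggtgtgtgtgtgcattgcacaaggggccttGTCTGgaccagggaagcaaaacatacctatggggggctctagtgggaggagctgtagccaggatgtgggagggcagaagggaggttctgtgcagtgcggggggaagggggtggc
Bgn: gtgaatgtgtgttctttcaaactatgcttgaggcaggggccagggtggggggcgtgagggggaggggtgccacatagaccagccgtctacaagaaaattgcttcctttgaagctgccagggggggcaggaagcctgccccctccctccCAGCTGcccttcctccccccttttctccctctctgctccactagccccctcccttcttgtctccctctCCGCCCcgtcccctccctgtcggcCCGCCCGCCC
Ogn: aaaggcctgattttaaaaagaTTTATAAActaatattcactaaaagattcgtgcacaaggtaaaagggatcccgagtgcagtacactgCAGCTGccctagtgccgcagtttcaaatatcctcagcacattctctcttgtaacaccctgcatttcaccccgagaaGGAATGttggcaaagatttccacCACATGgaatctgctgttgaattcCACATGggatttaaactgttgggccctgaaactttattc
Aspn: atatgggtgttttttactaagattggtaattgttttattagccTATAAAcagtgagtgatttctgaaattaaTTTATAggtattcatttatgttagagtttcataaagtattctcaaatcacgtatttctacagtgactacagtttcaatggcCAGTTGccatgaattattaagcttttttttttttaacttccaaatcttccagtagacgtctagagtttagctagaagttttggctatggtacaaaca
In the Islr window the capitals are 1 E-box (CANNTG) and 1 SMAD element (CAGAC, here as its complement). In the Bgn window they are 1 E-box and 3 GC boxes (GGGCGG, here as its complement), the last 2 of which overlap. The Ogn window held 1 TEAD site (GGAATG), 3 E-boxes and 2 overlapping TATA boxes (TATAAA). The Aspn window held 1 E-box and 2 TATA boxes. GC content was 59.6% for Islr, 64.4% for Bgn, 42.0% for Ogn and 30.0% for Aspn, against a median of 52.4% over all 32851 promoter windows of the table.

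Windows were found for 8 of the 10 members, 11 windows in all, some of which overlap, and the table held none for Dcn or Lum. An E-box occurred in 9 of the 11 windows and in 66.2% of all windows. The SMAD element occurred in 4 of 11 against 42.2%, the GC box in 3 of 11 against 32.7%, the TATA box in 2 of 11 against 12.4%, and the TEAD site in 2 of 11 against 12.6%. The AP-1 site (TGANTCA) was in none of the 11 windows and in 6.75% of all windows. A match to these short letters describes the window and does not show that a factor binds there.

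All 6 arrays lay on 1 slide, the controls in slide row 1 and the knockouts in row 2, so slide row and genotype cannot be told apart. The 75th percentile of signal intensity, to which each array was scaled, was 6353 to 7110.5 in controls and 4910.5 to 5820.0 in knockouts, and between 69.4% and 75.4% of non-control spots were well above background. No spot was saturated. The 6 animals are separate, and 3 arrays a group limit the precision. The series design mentions flow separation without naming a cell population. Markers of each of fibroblasts, smooth muscle, epithelium, endothelium and immune cells were detected. Each of the 10 fibroblast and 10 smooth muscle markers was above background on at least 1 array. Of the 8 neutrophil markers, 1 was above background on no array. These are bulk samples, in which fewer cells of a type and less RNA per cell cannot be told apart.

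Values below are log2 intensity relative to the 75th percentile of the array, in the order control replicate 1, 2, 3 and knockout replicate 1, 2, 3, and a difference is knockout minus control. Of all 35351 probes tested with limma, 1403 (3.97%) passed a 5% false discovery rate, 855 (2.42%) lower and 548 (1.55%) higher in the knockout. Of the 11 member probes, 8 from 7 genes could be tested, and 2 were called, both lower. Islr and Bgn fell, and no tested member was called higher. By the unadjusted limma p, 3 of the 8 probes were under 0.05, those of Islr, Bgn and Lum, all lower, beside 26.8% of all tested probes. The median difference over the 8 tested probes was -0.44, beside 5.75e-05 over all tested probes, and 7 of the 8 differences were below 0. The probes of Ogn, Aspn and Podn were left out of the test because spots marked as outliers by the scanner software left 1 usable knockout value each. Their values are given with the marked spots kept. Over all 11 member probes with marked spots kept, 8 differences were below 0 and 3 above.

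With marked spots kept, 5 of the 11 member probes had every knockout array below every control array (Islr, Dcn, Bgn, Lum and Podn) and none had every knockout array above, whereas 6 overlapped. Over all 40172 probes above background, 17.6% lay wholly lower and 17.3% wholly higher in the knockout. A clear order of 3 against 3 arrays was therefore common on these arrays.

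**Figure D1:**
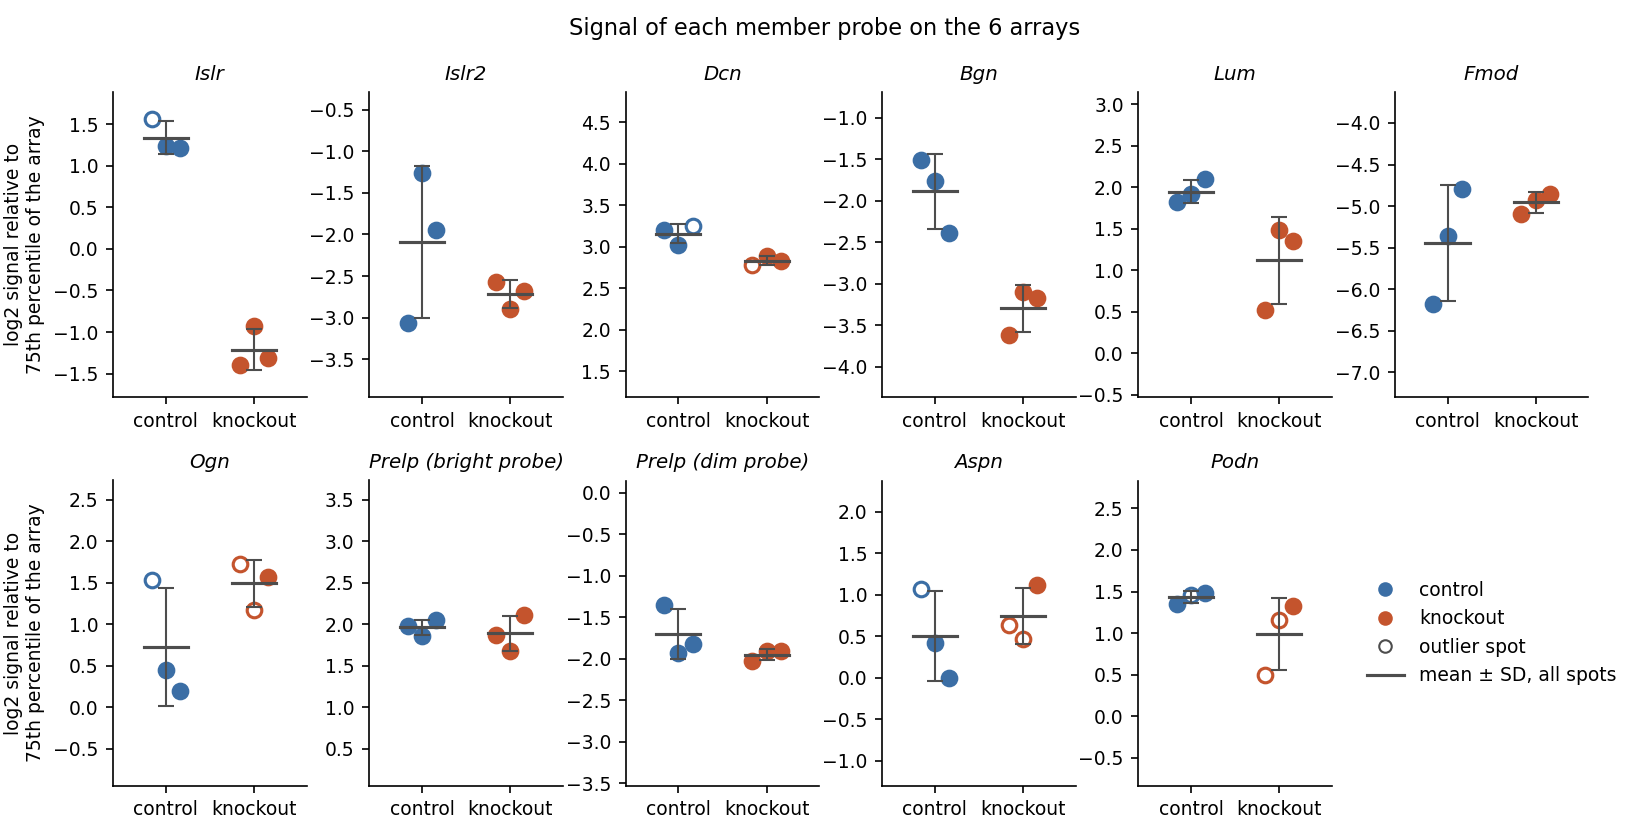
Log2 intensity relative to the array's 75th percentile for the 11 member probes in each of the 3 control and 3 knockout arrays, with open circles for marked spots and bars for the mean ± SD of all spots. Islr falls from between 1.21 and 1.57 in controls to between -1.40 and -0.93 in knockouts, whereas both Prelp probes overlap between the groups.

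Islr, the targeted gene, was read by 1 probe. Its log2 values were 1.57, 1.24 and 1.21 in controls and -1.40, -0.93 and -1.31 in knockouts. Control replicate 1 lay on a marked spot. The groups lay far apart and the spread within each was small. As processed intensities these were 18838, 16768 and 15157 against 1862, 3057 and 2327. Without the marked spot the means were 1.23 ± 0.018 (SD, n = 2) and -1.21 ± 0.25 (SD, n = 3). The difference was -2.44 (SE 0.21, limma adjusted p = 0.0171, 95% interval -2.96 to -1.92), which left 0.185 of the control level. With the marked spot kept it was -2.55, and the exact permutation test gave p = 0.1 (two-sided), the smallest p that 3 against 3 allows. No array went against its label, although the signal stayed at least 32.7 times the local background on every array, and where the probe lies relative to the deleted part was not analysed here. Without knockout replicate 3 the difference was -2.39 and the limma adjusted p = 0.0580.

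Islr2, the membrane-bound paralog that lies next to Islr, was not called. Its values were -3.07, -1.25 and -1.95 in controls and -2.57, -2.90 and -2.68 in knockouts. Control replicate 1 was the lowest of all 6 arrays and the other 2 controls were the highest. The difference was -0.63 (SE 0.44, limma adjusted p = 0.396, 95% interval -1.67 to 0.42), which does not pass the threshold. Without control replicate 1 it was -1.12 (limma adjusted p = 0.0598), and without control replicate 2 it was -0.21 (limma adjusted p = 0.808). The interval leaves room for a fall of more than 1 log2 unit and for a small rise.

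Among the class I members, biglycan (Bgn), which carries chondroitin or dermatan sulphate, was the other called probe. Its values were -1.51, -1.76 and -2.39 in controls and -3.62, -3.09 and -3.17 in knockouts, without a marked spot. The intensities were 2231, 2098 and 1252 against 399.6, 681 and 642. All knockouts lay below all controls, with control replicate 3 nearest to them. The means were -1.89 ± 0.45 (SD, n = 3) and -3.29 ± 0.28 (SD, n = 3), a difference of -1.41 (SE 0.27, limma adjusted p = 0.0458, 95% interval -2.06 to -0.76) that left 0.377 of the control level. The call sat close to the threshold: leaving out any of the 6 arrays gave differences from -1.66 to -1.22 with limma adjusted p from 0.0567 to 0.133.

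Decorin (Dcn), which also carries such a chain and binds collagen, was not called. Its values were 3.20, 3.02 and 3.24 in controls and 2.78, 2.89 and 2.83 in knockouts, with marked spots on control replicate 3 and knockout replicate 1. The groups did not overlap. Without the marked spots the difference was -0.25 (SE 0.20, limma adjusted p = 0.479, 95% interval -0.79 to 0.28, n = 2 and 2), and with them it was -0.32 (limma adjusted p = 0.208). The estimate for Bgn (-1.41) lies outside the interval of Dcn, although the interval of Bgn reaches -0.76. Dcn and Bgn were not tested against each other. Asporin (Aspn), a class I member that binds collagen and TGF-beta, read 1.07, 0.42 and 0.00 in controls and 0.63, 0.47 and 1.12 in the knockouts. The groups overlapped, and with 3 marked spots kept the difference was 0.24 (limma adjusted p = 0.652, 95% interval -0.51 to 0.99).

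Of the class II members, several of which carry keratan sulphate or sulphated tyrosines, lumican (Lum) read 1.83, 1.92 and 2.10 in controls and 0.52, 1.49 and 1.35 in the knockouts. The groups did not overlap, and knockout replicate 1 was far below the other 2. The difference was -0.83 (SE 0.27, limma unadjusted p = 0.0205, adjusted p = 0.117, 95% interval -1.48 to -0.17), so Lum did not pass the threshold over all probes. Without knockout replicate 1 it was -0.53. Fibromodulin (Fmod), which helps collagen fibrils assemble, was close to background, at 1.30 to 3.13 times the local background. It read -6.18, -5.36 and -4.79 in controls and -5.10, -4.92 and -4.85 in knockouts, a difference of 0.49 (SE 0.34, limma adjusted p = 0.402) that was 0.12 without control replicate 1, where it was not above background.

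Prelp, a class II member that anchors basement membrane to collagen, was read by a brighter and a dimmer probe. The brighter read 1.97, 1.86 and 2.05 in controls and 1.87, 1.68 and 2.11 in knockouts, a difference of -0.07 (SE 0.17, limma adjusted p = 0.815, 95% interval -0.47 to 0.33). Its dimmer probe read -1.36, -1.93 and -1.82 against -2.03, -1.91 and -1.91, a difference of -0.25 (limma adjusted p = 0.444). Neither probe separated the groups.

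Osteoglycin (Ogn), a class III member also called mimecan, read 1.54, 0.45 and 0.19 in controls and 1.72, 1.18 and 1.57 in knockouts. Control replicate 1 lay among the knockouts, and the other 2 controls lay below them all. With its 3 marked spots kept the difference was 0.76 (limma adjusted p = 0.232, 95% interval -0.11 to 1.64), with an exact permutation p = 0.2. Podocan (Podn), of a later-described class that binds collagen, read 1.35, 1.46 and 1.48 in controls and 0.50, 1.15 and 1.32 in the knockouts. The groups did not overlap, though knockout replicate 3 came close to the lowest control. With 3 marked spots kept the difference of -0.44 did not pass (limma adjusted p = 0.278, 95% interval -1.01 to 0.12).

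Control replicate 1 was the lowest array for Islr2 and Fmod and the highest control for Ogn and Aspn. The summed intensity of the 6 adipocyte markers, as a multiple of the array's 75th percentile, was 26.0 on that array and 4.28 to 11.3 on the other 5. Knockout replicate 1 was the lowest for Lum, Podn, Bgn and Islr, and the 10 fibroblast markers summed to 27.3 there on the same scale, the lowest of the 6 arrays. The part of these 2 arrays' makeup in the members' values was not tested.

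**Figure D2:**
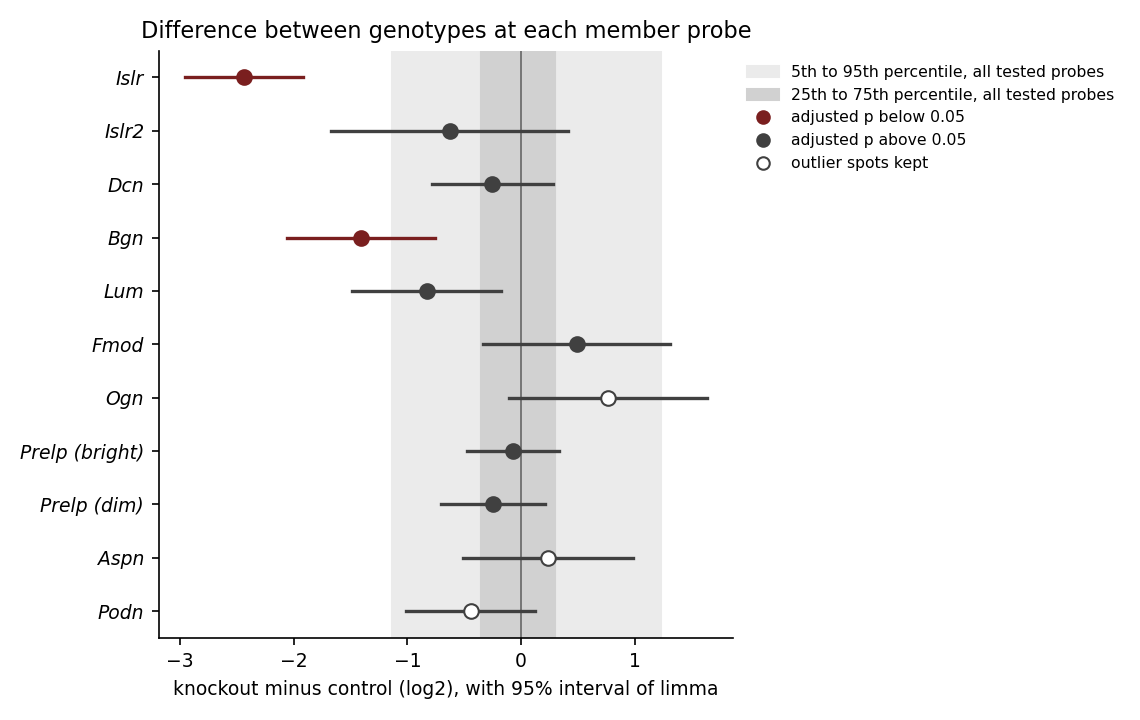
Knockout minus control difference in log2 intensity for each member probe, with its 95% interval from limma, open circles for probes with marked spots kept and grey bands for the middle of all tested probes. Islr (-2.44) and Bgn (-1.41) are the 2 called probes, whereas the interval of Ogn runs from -0.11 to 1.64.

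Several of the members are made by fibroblasts, so markers of these and other cells are given beside them. All 9 tested of the 10 fibroblast markers had differences below 0, with a median of -0.41, none called by limma and 4 with an unadjusted p under 0.05, and their summed intensity was 40.5 to 46.3 times the array's 75th percentile in controls and 27.3 to 36.4 times in knockouts. Sums of the other lists are on this scale. An unadjusted p under 0.05 was held by 26.8% of all tested probes. Smooth muscle markers were the other way, with all 8 tested above 0 (median 0.36, none called by limma, 2 with an unadjusted p under 0.05) and sums of 51.5 to 63.8 against 70.0 to 81.3.

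Endothelial markers were below 0 in 7 of 7 tested (median -0.88, none called by limma, 5 with an unadjusted p under 0.05), with sums of 9.92 to 11.47 against 3.40 to 6.58. Pericyte markers were below 0 in 3 of 3 tested (median -1.12, 1 called, Pdgfrb), with sums of 20.6 to 23.0 against 10.3 to 14.6. These vessel lists were low on all knockout arrays. Macrophage markers were below 0 in 6 of 6 tested (median -0.81, none called by limma, 4 with an unadjusted p under 0.05), with sums of 19.1 to 26.1 against 10.8 to 17.8. Neutrophil markers were called lower for 5 of 6 tested (median -3.79), with sums of 24.1 to 25.9 against 16.98 to 18.8. Csf3r, the tested marker above 0 (0.17, not called), and Ly6g, not tested, gave the highest intensities of this list on all 3 knockout arrays. Epithelial markers were above 0 in 8 of 8 tested (median 1.21, none called by limma, 2 with an unadjusted p under 0.05), with sums of 17.1 to 54.0 against 61.6 to 79.7. Enteric neuron and glia markers were below 0 in 6 of 6 tested (median -0.44, none called by limma). Their sums were 12.7 to 13.3 against 9.48 to 11.6. Mesothelial markers were below 0 in 6 of 7 tested and lymphocyte markers in 5 of 6, none called. Adipocyte markers were above 0 in 4 of 4 tested, none called, and skeletal muscle markers in 5 of 6, with 1 called higher. The part of these shifts in the members' differences was not tested beyond the ratio that follows.

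To set the members beside the stroma of the same array, the mean of 7 reference genes of fibroblasts and mesenchyme (Col1a1, Col1a2, Col3a1, Pdgfra, Vim, Sparc and Thy1) was subtracted within each array. The reference mean itself was 2.63, 2.41 and 2.57 in controls and 1.70, 2.26 and 2.29 in knockouts, a difference of -0.46 (exact permutation p = 0.1). Marked spots were kept for this ratio. Single reference genes differed by -1.13 (Pdgfra) to -0.13 (Thy1). Pdgfra and Vim lay on marked spots on control replicate 1 and knockout replicates 1 and 2, so neither entered the main test. Pdgfra read -0.16 on knockout replicate 1 against 1.16 and 1.19 on knockout replicates 2 and 3.

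Relative to this mean, Islr was -1.07, -1.17 and -1.36 in controls and -3.09, -3.19 and -3.60 in knockouts, a difference of -2.10. Bgn was -4.14, -4.17 and -4.95 against -5.31, -5.35 and -5.46, a difference of -0.95. Both kept every knockout below every control, at the smallest exact permutation p this design allows (p = 0.1). How many of all probes part wholly on this ratio scale was not computed. Without the ratio, 17.6% of probes above background lay wholly lower and 17.3% wholly higher in the knockout. With normexp background correction and quantile scaling the difference of Bgn shrank to -0.49 and its groups overlapped.

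The other members parted in direction. The groups overlapped for Lum (-0.37, exact permutation p = 0.2), Prelp (0.38, exact permutation p = 0.3), Islr2 (-0.17), Dcn (0.13) and Podn (0.01). Ogn was -1.10, -1.97 and -2.37 in controls and 0.03, -1.08 and -0.72 in knockouts, a difference of 1.22 with every knockout above every control (exact permutation p = 0.1). For Ogn, control replicate 1 (-1.10) and knockout replicate 2 (-1.08) almost touched, and both lay on marked spots. Fmod, near background, was also wholly above (0.94, exact permutation p = 0.1), and Aspn overlapped (0.70, exact permutation p = 0.2). A ratio within an array shows unequal change between genes and not which of them moved.

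**Figure D3:**
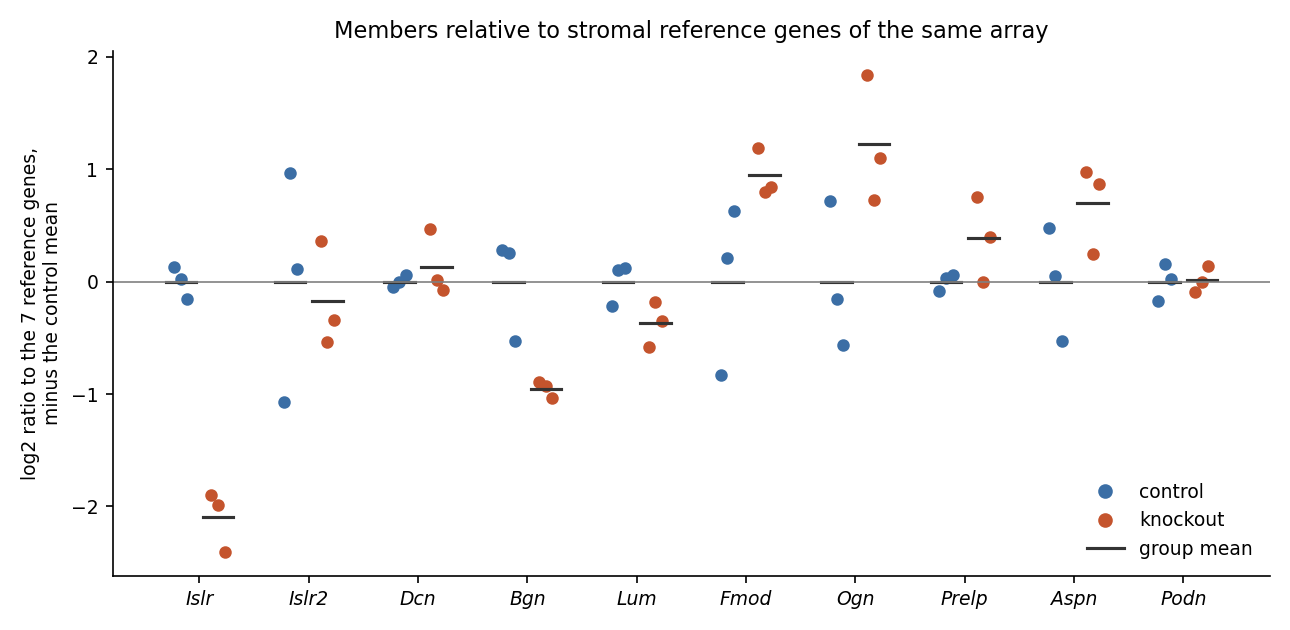
Log2 intensity of each member minus the mean of the 7 reference genes on the same array, drawn relative to the control mean of that gene, for 3 control and 3 knockout arrays, with group means as lines. Marked spots are kept. Islr and Bgn are lower in all knockouts by 2.10 and 0.95 log2 units in the mean. Ogn is higher in all of them, though control replicate 1 and knockout replicate 2 almost touch.

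Several members lie side by side on the genome, with 0 protein-coding genes between them. Their knockout minus control differences, given here with marked spots kept, varied in size and sign. Neighbours were not tested against each other. On chromosome 9, Islr (-2.55) and Islr2 (-0.63) are neighbours. On chromosome 10, Dcn (-0.32) and Lum (-0.83) are followed by Kera and Epyc, which were above background on no array. On chromosome 1, Optc (1.98), Prelp (-0.07 by its brighter probe) and Fmod (0.49) are neighbours. On chromosome 13, the run is Ecm2 (-0.18), Aspn (0.24), Omd (-0.68) and Ogn (0.76). Islr was the only called gene among those named in these 4 groups.

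**Figure D4:**
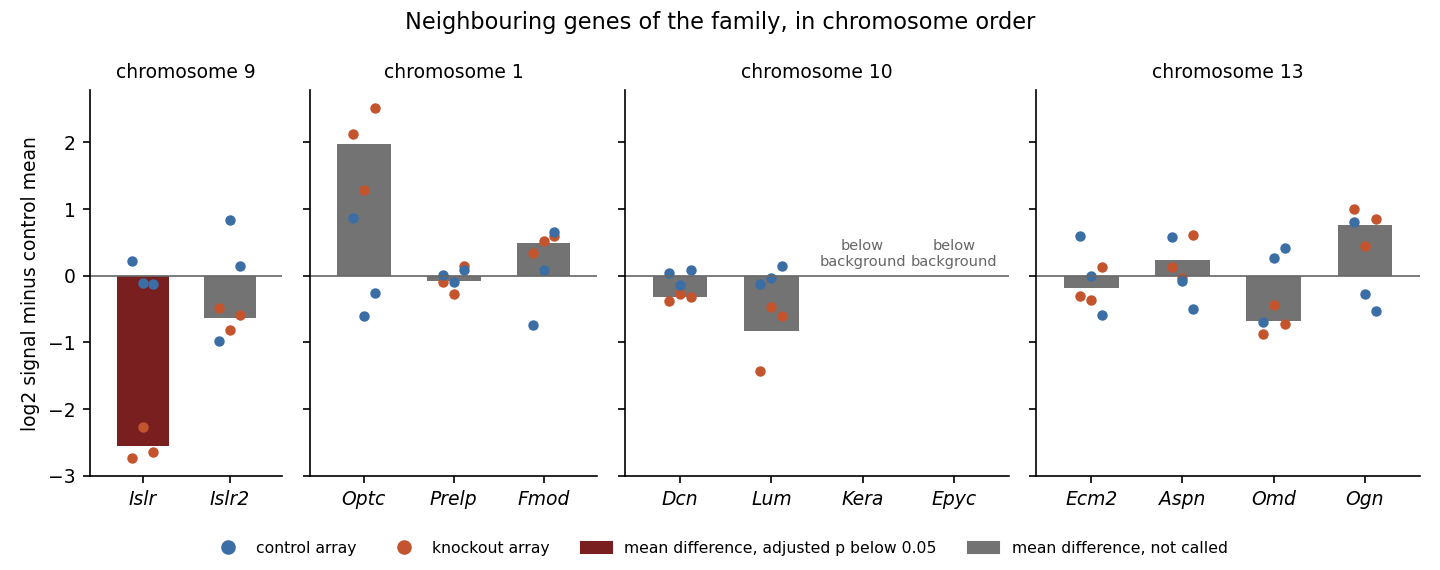
Knockout minus control difference in log2 intensity for the genes of each genomic group in chromosome order, marked spots kept. Bars are differences of the means and points are single arrays minus the control mean. Islr at -2.55 stands beside Islr2 at -0.63, and Optc at 1.98 beside Prelp and Fmod.

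The 10 other small leucine-rich proteoglycans and their relatives gave no call with limma. Of the 7 tested, 3 were below 0 and 4 above, with a median of 0.07, and 1 had an unadjusted p under 0.05. That was Optc (opticin), at -0.07, -1.53 and -1.18 in controls and 1.19, 0.36 and 1.59 in knockouts, a difference of 1.98 (SE 0.46, limma adjusted p = 0.0627). Its groups did not overlap. Optc and Omd each had a limma adjusted p under 0.05 in 1 of 6 fits with 1 array left out. Omd (osteomodulin) differed by -0.68 (limma adjusted p = 0.223), Ecm2 by -0.18, Tsku (tsukushi) by -0.16, Podnl1 by 0.07, Chadl by 0.23 and Chad (chondroadherin) by 0.24. The other tested probe of Chadl differed by -0.10. Optc had 2 probes, of which 1 was tested. Kera and Epyc were above background on no array, and Nyx on 1 knockout array.

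Among 30 proteins that combine leucine-rich repeats with immunoglobulin domains, as Islr does, 23 were tested, 15 below 0, with a median of -0.35. Pxdn, a peroxidase of basement membrane, was the only call (-1.13, limma adjusted p = 0.0432), and it was lost when any 1 array was left out. The list median was -0.05 with no filter on dim probes and -0.06 without knockout replicate 1.

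Enzymes that build chondroitin and dermatan sulphate chains were called lower for 4 of 21 tested among 26, with a median of -0.44, and none was called higher. With 1 array left out the median ran from -1.06 (knockout replicate 2 omitted) to -0.49, at -0.71 with knockout replicate 3 omitted and -0.69 with control replicate 3 omitted. Chst15, which adds a sulphate to chondroitin, had intensities of 11024, 10759 and 8719.6 in controls against 2527, 4225 and 4027 in knockouts, a difference of -1.25 (SE 0.20, limma adjusted p = 0.0346). Chpf2, a chondroitin polymerising factor, differed by -1.17 (SE 0.18, limma adjusted p = 0.0320). Chsy3, a chondroitin synthase, was above background on no knockout array and was at least 2.82-fold lower (limma adjusted p = 0.0298), a bound that takes the dimmest clearly detected probe of every knockout array as the knockout level. Chsy3 entered the test only because it was above background in the controls, so its call is not separate support for a fall.

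Keratan sulphate synthesis, by contrast in sign, held the only gene of these lists called higher. B3gnt7, which extends keratan sulphate, had intensities of 207, 184 and 239 in the controls and 1209, 441 and 996 in knockouts, a difference of 2.24 (SE 0.43, limma adjusted p = 0.0450). Its control intensities were low, beside 87.4, 172.9 and 236.4 for Fmod in controls, which limits the size of this difference. Of the 7 tested among 8 genes, 5 were above 0, with a median of 0.87, and the sulphotransferases Chst1 (-0.89) and Chst2 (-1.33), named after their values were seen, were below 0 and not called. Several of these enzymes also act in epithelium, whose markers were higher in the knockout, and the part of that in this list was not tested.

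Proteases known to cut these proteoglycans were below 0 for all 10 tested of 12, with a median of -1.76, and 4 were called. Mmp14, a membrane-bound protease of fibroblasts and endothelium, had intensities of 7244, 6225 and 6557 against 884, 1882 and 1333 in knockouts, a difference of -2.07 (SE 0.25, limma adjusted p = 0.0233). Mmp9, the gelatinase of neutrophils, differed by -2.86 (SE 0.56, limma adjusted p = 0.0468), beside neutrophil markers of which 5 were called lower. Mmp12, of macrophages, was at least 3.42-fold lower and above background on no knockout array (limma adjusted p = 0.0339), beside macrophage markers with a median of -0.81. Like Chsy3, it entered the test only because it was above background in the controls, so its call is not separate support for a fall. The part of neutrophils and macrophages in the protease values was not tested.

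Growth factors and receptors that these proteins bind were below 0 in 16 of 21 tested among 23, with a median of -0.53, and 4 were called, all lower. They included Bmp7 (-2.43, limma adjusted p = 0.0277), Bmp4 (-2.00, limma adjusted p = 0.0395) and Tgfb1 (-1.49, limma adjusted p = 0.0468). The Bmp4 intensities were 15839, 19552 and 16584 in controls and 1812, 5459 and 4540.2 in the knockouts.

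The collagens and matrix proteins that small leucine-rich proteoglycans bind were below 0 in 16 of 16, with a median of -0.71 (-0.44 without knockout replicate 1), and 1 was called, Col5a3 (-2.07, limma adjusted p = 0.0357), a fibril collagen chain. Its intensities were 20639.6, 21777 and 23823 against 2252, 5767 and 6219. Of 29 other proteoglycans 25 were tested and 20 were below 0, with a median of -0.55 (-0.33 without knockout replicate 1). Esm1, of endothelium (-2.97, limma adjusted p = 0.0479), and Col18a1, of basement membrane (-2.04, limma adjusted p = 0.0401), were called lower, beside endothelial markers that were lower in sum.

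Across these 8 lists 17 of 130 tested genes were called (13.1%, beside 3.97% of all probes), 16 lower and 1 higher. The list share counts 1 probe a gene, the brightest tested, whereas the other counts every tested probe, named or not. Lists were chosen with earlier results of these data known, so the gap between the shares does not measure an enrichment. The lists were read on the same arrays as the shifts in stroma and leukocyte markers described above. The part of those shifts in the list values was not tested. Chsy3 and Mmp12, counted among the called genes, entered the test through the controls alone. All 17 kept their sign when any 1 array was left out, but none stayed called in every such fit. Of the 17, 0 were called without control replicate 2 or control replicate 3, 10 when control replicate 1 was omitted, 5 when knockout replicate 1 was, 13 when knockout replicate 2 was and 1 when knockout replicate 3 was.

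**Figure D5:**
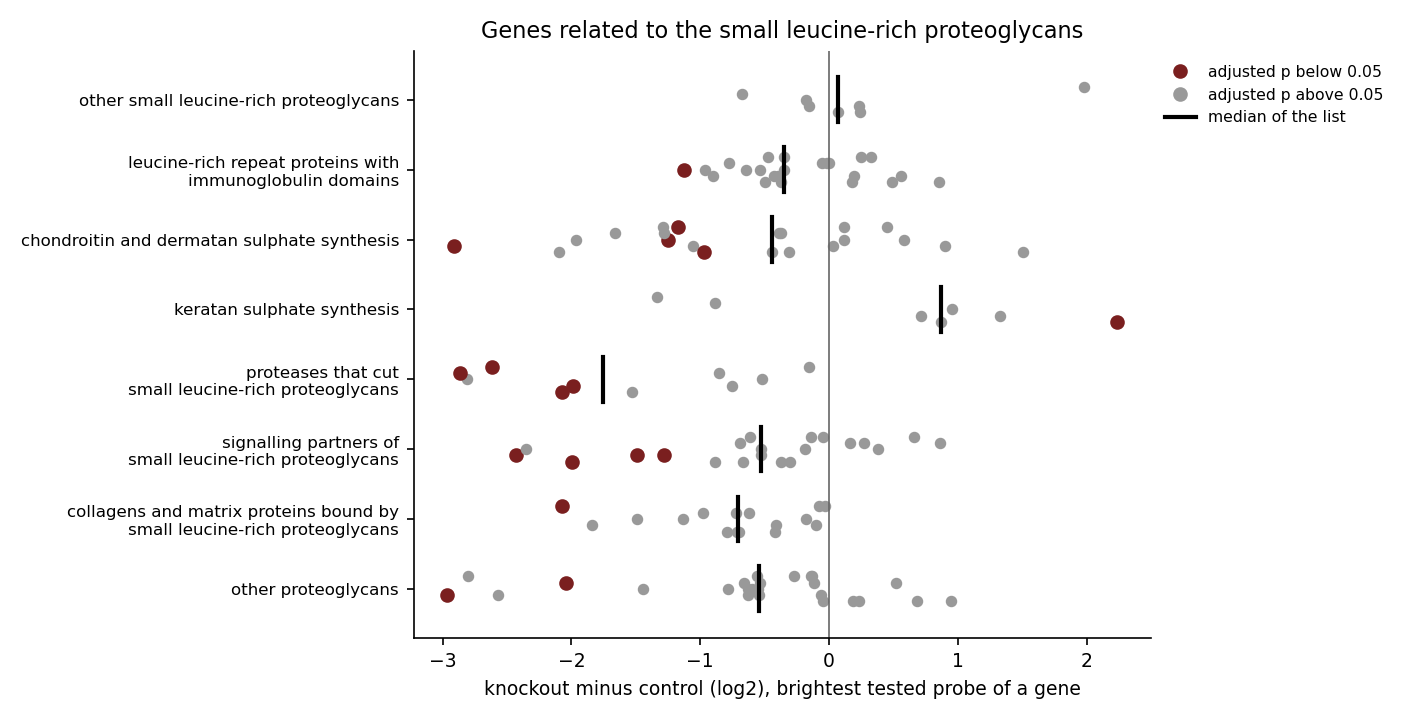
Knockout minus control differences in log2 intensity of the tested genes of the 8 related lists, with called genes marked and the median of each list drawn. The protease list has the lowest median (-1.76) and the keratan sulphate list the highest (0.87).

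The genes whose pattern over the 6 arrays was most like that of Islr, out of 16758 compared with marked spots kept, were Rom1 (Pearson r = 0.9995), Slc39a14 (0.9987), Plod1 (0.9969), Zkscan17 (0.9954) and Washc4 (0.9953). Slc39a14, a metal transporter, was itself called lower (limma adjusted p = 0.0161). For Dcn they were Ncam1 (0.9947), Wdr92 (0.9921), Marcksl1-ps4 (0.9908), Adam9 (0.9858) and Nupr1l (0.9845). A coefficient above 0.95 was reached by 362 genes for Islr and 39 for Dcn. These arrays share the split between genotypes, which adds to the coefficients of genes that differ between them, and the coefficients are a description without a test. Between members, the coefficient was 0.948 for Islr and Bgn, 0.926 for Islr and Dcn, 0.414 for Islr and Islr2 and -0.615 for Islr and Ogn.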

How the data were processed

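RNA from 6 mouse colons was hybridised to single-colour Agilent arrays. Per the file headers, the authors deposited scanner output of Agilent Feature Extraction 11.5.1.1 with 1 red channel, in which the processed signal is a background-corrected intensity; the labels name version 10.7 and a green-channel dye. From these, log2 intensity minus each array's 75th percentile over non-control spots was computed, duplicate spots of a probe were averaged, and spots marked non-uniform or population outlier were set to missing. A probe was tested if every array of 1 group or the other had it well above background and each group kept 2 usable values: 40172 probes met the first condition and 35351 both. limma 3.58.1 (R 4.3.3) fitted the groups without covariates, with Benjamini-Hochberg adjustment over all tested probes. Gene names came from RefSeq accessions matched to GRCm38.p6 (33767 of 56605 probes, 59.7%). Named are all members and, per list, the called genes, at most 3 a direction by size, every probed gene of the other small leucine-rich proteoglycans, the reference genes, and 5 nearest patterns for Islr and for Dcn; for lists the brightest tested probe stands for the gene, for the ratio the brightest probe. Members and lists were chosen with earlier results of these data known. The deposited value table holds the same processed intensity, linear and uncentred (column medians 492 to 829). The scripts were tested on simulated data. Alternatives were other scalings, background correction, marked spots kept, no background filter, array weights, the deposited value table, and each array left out.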

Additional observations from a re-analysis of the deposited data

How the results depend on the processing

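The 1403 probes called became 2249 with array median centring, 2768 with normexp and quantile scaling, 484 with no filter on dim probes, 8119 with array weights and 2274 from the deposited value table. Leaving out 1 array gave 40 to 2114: 2114 without control replicate 1, 71 and 90 without control replicates 2 and 3, 263, 1150 and 40 without knockout replicates 1, 2 and 3. The 2 member probes called became 1 with no filter on dim probes and 4 with array weights, where Islr2 (-1.20) and Lum (-0.65) were added, and 0 to 1 with 1 array left out (0 without control replicate 2, control replicate 3 or knockout replicate 3). The 17 called genes of the related lists became 27 with array median centring, 32 with normexp and quantile scaling, 5 with no filter, 54 with array weights, 26 from the value table and 0 to 16 with 1 array left out. The Islr difference stayed between -2.58 and -2.34 in the 4 such fits that could be made, with limma adjusted p = 0.0580 (-2.39) without knockout replicate 3; without control replicate 2 or control replicate 3 too few usable spots were left. The difference of the brighter Prelp probe (A_52_P486260) ran from -0.18 to 0.032 with 1 array left out, turning to 0.032 without knockout replicate 2. Members wholly below the controls relative to the reference genes, 2 in all, were 1 with normexp and quantile scaling and 2 to 3 with 1 array left out. The matching share of all probes on that ratio scale was not computed. The cause of these changes was not tested. No paired analysis was possible because the labels give the animals no replicate numbers that link a control to a knockout. Fmod, Omd, Chsy3 and Mmp12 lay near background and B3gnt7 was low in the controls, which limits their values.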
